A study of Glycine max with 16 samples.

Results

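LEAFY COTYLEDON1 (LEC1) binding sites found with one antibody at every embryo stage, but not with a second antibody, made up 3885 of 35935 all-stage regions in soybean embryos. A region was formed by joining peaks of the 3 stages that overlapped by at least 1 bp, and an all-stage region holds a peak of each stage. Its members here are the all-stage regions over which the second antibody, raised against a GmLEC1 peptide, gave no peak. The members were thus chosen by the presence and absence of called peaks in the 4 lists, and the 10.8% share is a description that supports nothing further. The number of members was 2381 with lists of equal length, 337 with the higher-scoring 50% of each anti-recombinant list and 13688 with the higher-scoring 50% of the peptide list. Over all 78759 regions of the 3 stages the share without a peptide peak was 41.3%.

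LEC1 is a NF-YB-type subunit of the nuclear factor Y complex, which binds DNA at CCAAT motifs together with NF-YA and NF-YC subunits. It is a central regulator of seed development, known for its part in embryo morphogenesis, in photosynthesis genes of the young embryo and in the storage programme of the maturing seed. In chromatin immunoprecipitation followed by sequencing (ChIP-seq), an antibody pulls down the protein with the DNA crosslinked to it, and a peak is a stretch of genome where that DNA is enriched.

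Embryos of the cultivar Williams 82 were dissected from seeds of 2.5 to 3.5 mm at the cotyledon stage (COT), of 6 to 7 mm at early maturation (EM), and of 200 to 250 mg at mid-maturation (MM). Whole embryos were used, with no genetic change or treatment in any group, so no cell type is resolved. An antibody against a recombinant GST fusion of GmLEC1 was used at all 3 stages and the anti-peptide antibody at EM alone. Each of these 4 combinations had 2 biological replicates of ChIP and 2 of input chromatin, 16 libraries in all, and is represented by 1 peak list. The lists hold 51845 peaks (COT), 55140 peaks (EM), 64146 peaks (MM) and 49566 peaks (anti-peptide). With 1 list per combination there is no spread between replicates, and the depth behind a list is unknown. Comparisons below are therefore descriptions of these 4 lists without a test. Intervals are exact (Clopper-Pearson) at 95% and cover counting error only. Antibody, experiment and depth cannot be told apart for the peptide list.

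The absence of a peptide peak followed the number of stages at which a region was called. Of the regions called at EM and MM and not at COT, 41.2% lacked a peptide peak (interval 40.3 to 42.1). The share was 50.4% for regions of COT and MM, 61.1% for those of COT and EM, and 80.4 to 85.8% for regions of a single stage. The all-stage regions had the lowest share of the 7 combinations, 10.8% (10.5 to 11.1).

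The peptide list was not the one that most often lacked a site held by the others. When the peaks of all 4 lists were joined, 6685 of the 38694 regions held by EM, MM and the peptide list lacked a COT peak, or 17.3% (16.9 to 17.7). The corresponding share lacking a peptide peak was 10.8% of 35894 regions (10.5 to 11.1). It was 6.14% of 34102 for a missing EM peak and 3.00% of 33000 for a missing MM peak. The longest lists, MM and EM, had the lowest shares. The peptide list is the shortest, but the COT list lacked the most. EM alone is the stage of both an anti-recombinant and the anti-peptide list. Whether length or stage sets these shares was not tested.

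Regions missed by the peptide antibody tended to be the weaker sites at every stage. The deposited score orders peaks within a list, and a place is given here as a percentage of the list, with low values for high scores. The members had a median place of 62.6% in the COT list, 61.8% in the EM list and 63.5% in the MM list. All-stage regions with a peptide peak had median places of 33.2, 32.3 and 28.4%. Both sets overlapped broadly in each list. At EM the members ran from 0.749 to 99.99% and from 43.0 to 79.5% between their quartiles, and the regions with a peptide peak ran between quartiles from 15.2 to 54.4%.

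**Figure D1:**
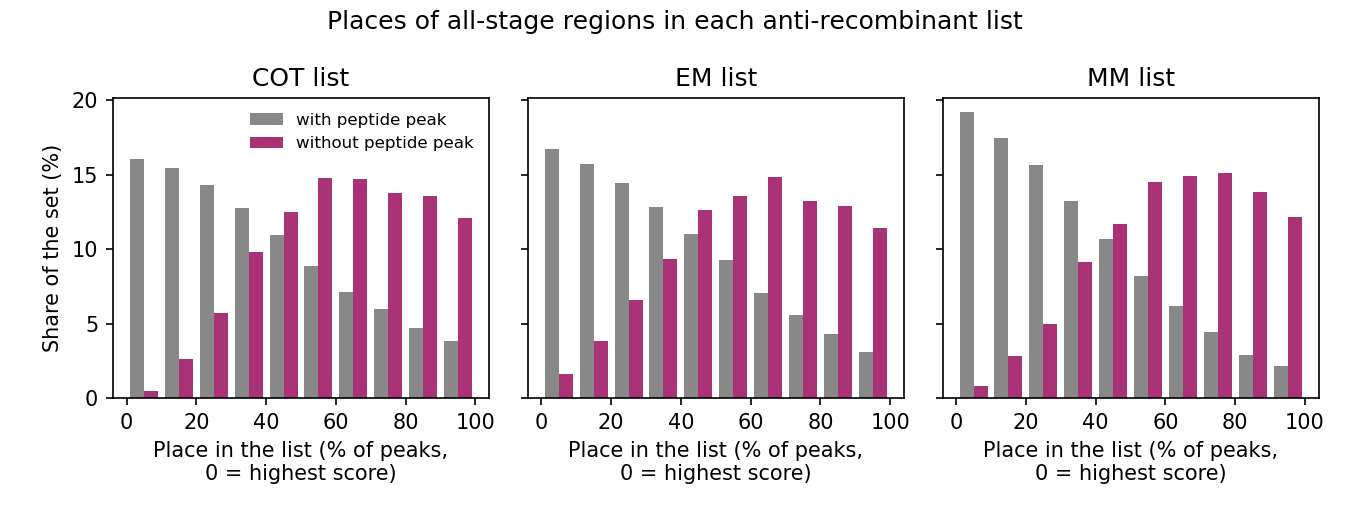
Share of each set (y axis, %) by place in the COT, EM and MM anti-recombinant lists (x axis, % of the list, 0 being the highest score), for all-stage regions with a peptide peak (grey) and without one (purple). In each list the regions without a peptide peak have few members at the high-scoring end, and their medians lie at 61.8 to 63.5%.

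Few members were well placed throughout. In 337 of them, or 8.67% (7.81 to 9.60), all 3 peaks lay in the better 50% of their lists, against 52.0% of the regions with a peptide peak. A peak in the lowest-scoring 10% of its list was present in 1170 members, or 30.1% (28.7 to 31.6), against 8.23%. A peak in the highest-scoring 10% of at least 1 list was present in 91 members, or 2.34% (1.89 to 2.87), against 28.7%.

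Members were also narrow. The median width was 350 bp for the members and 500 bp for all-stage regions with a peptide peak, and 90% of the members were 200 to 500 bp wide. The members' strongest peak was a median of 200 bp wide in the COT list and 250 bp wide in the EM and MM lists, against 350, 400 and 450 bp in the other set. Widths come in steps of 50 bp in these lists, and wide peaks score high, so width and place are not independent measures. A wider region also offers more bases for a peptide peak to overlap, so the rule itself favours narrow members.

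The peaks of the 3 stages overlapped in most members, which forming regions by overlap favours. A single peak in each list made up 3828 of the members, or 98.5%. In 3738, or 96.2% (95.6 to 96.8), the strongest peaks of the 3 stages shared at least 1 base, against 98.4% of the regions with a peptide peak. The shared stretch had a median of 150 bp in the members and 300 bp in the other set. The median region widths were 350 and 500 bp. Peak midpoints of any pair of stages were a median of 25 bp apart in both sets, with an upper quartile of 50 bp.

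The share without a peptide peak rose with every step down in strength. Strength was taken as the weakest place, the place in whichever of the 3 anti-recombinant lists ranks the region lowest. In the strongest 10% of all-stage regions, 2 of 3594 had no peptide peak, or 0.0556% (0.00674 to 0.201). This share depended on what counts as a peptide peak: it was 0.696% (25 regions) when a reciprocal overlap of at least 50% was asked for, 1.92% (69 regions) when midpoints had to lie within 100 bp, and 0.556% (20 regions) with the higher-scoring 50% of the peptide list. In the fifth of the 10 classes it was 198 of 3594, or 5.51%, and in the weakest 10% it was 1085 of 3594, or 30.2% (28.7 to 31.7).

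The same climb was seen in each list, but the strong end differed between lists. Of the 10% of all-stage regions best placed at EM, 33 of 3594 had no peptide peak, or 0.918% (0.633 to 1.29). Of those best placed at MM it was 12, or 0.334% (0.173 to 0.583), and of those best placed at COT it was 2, or 0.0556%. The EM list, which shares its stage with the peptide list, thus held the most members at its strong end. At the weak end the order was another one, with 36.4% of the regions placed lowest at MM, 28.3% of those at EM and 26.7% of those at COT.

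**Figure D2:**
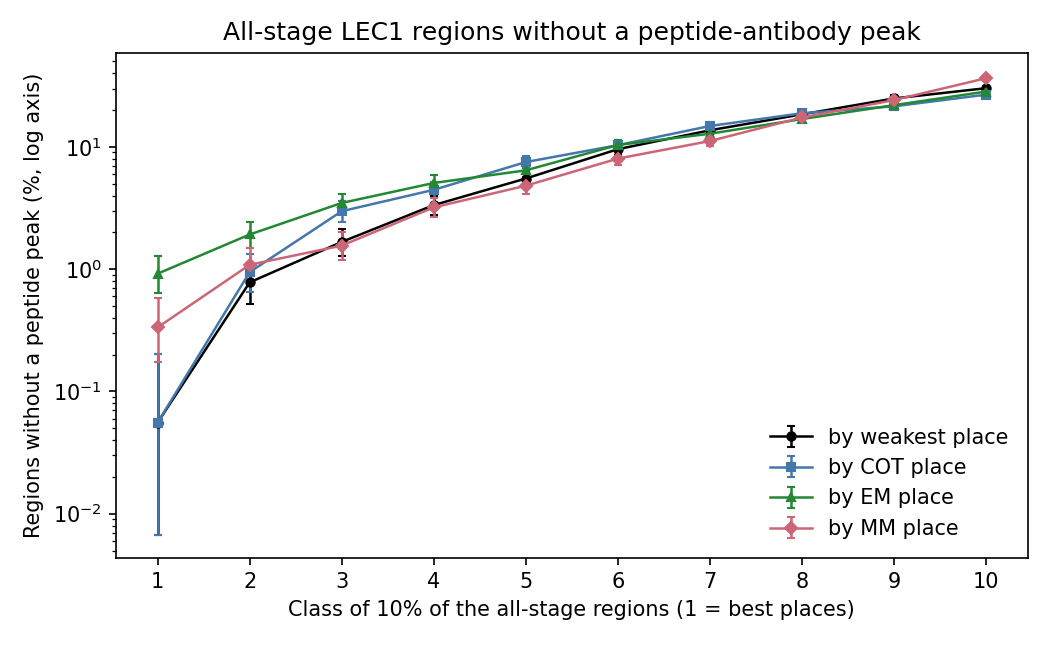
Share of all-stage regions without a peptide peak (y axis, %, log axis) in 10 classes of equal size (x axis), ordered by the weakest place or by the place in the COT, EM or MM list; bars are exact 95% intervals. All 4 lines climb, from 0.0556 to 0.918% in the first class up to 26.7 to 36.4% in the last.

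The members that were strong at EM stood far lower at the other stages. For the 33 in the first EM class the median place was 4.46% at EM, 17.3% at MM and 29.6% at COT. The 3561 regions of that class with a peptide peak had medians of 3.29, 4.78 and 7.36%. At equal EM place the members thus had the worse places at both other stages. This held in each of the 10 EM classes, with median places worse by 12.5 to 19.7 percentage points at MM and by 9.83 to 22.7 at COT.

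In the reverse direction the EM places lay closer together. In classes of equal MM place the members' median EM place was worse in 9 of 10 classes, with differences of −0.154 to 7.84 percentage points. Their COT place was worse in 10 of 10, by 8.55 to 36.4 points. In classes of equal COT place the members were worse at EM by 4.10 to 17.6 points and at MM by 3.00 to 27.6 points, in 10 of 10 classes each. Among the 3 anti-recombinant lists, the EM list at equal MM place was the one in which members and regions with a peptide peak lay closest.

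The order between EM and MM also differed in direction. The EM place was better than the MM place in 2156 members, or 55.5% (53.9 to 57.1), and in 43.0% (42.4 to 43.5) of the regions with a peptide peak. The median of EM minus MM place was −3.01 percentage points in the members and 2.22 in the other set. It was below 0 for the members and above 0 for the other set in each of the 10 classes of strength. The first class held only 2 members, and EM was the better place in 50% of them. In the last class the members' median was −0.703, with EM better in 50.8%. With lists of equal length the members' median moved to −0.0888 and that of the other set was 2.47. With the higher-scoring 50% of the peptide list it was 0.680 and 2.20, so the members' sign turned with fewer peptide peaks admitted, while the members had the lower value in both settings.

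Width differed within classes of the weakest place too, where the overlap rule still favours narrow members. These classes do not match the other places: the members' median MM place was worse in 10 of 10, their COT place in 7 and their EM place in 3. The members were narrower in each of the 10 classes, with a median of 450 against 600 bp in the second class, 400 against 450 bp in the fifth and 300 against 350 bp in the last. For the EM peak at equal EM place, the members' peak was narrower in 9 of 10 classes, and for the MM peak at equal MM place in 10 of 10. For the COT peak at equal COT place it was narrower in 6 of 10 classes and of the same median width in the others.

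**Figure D3:**
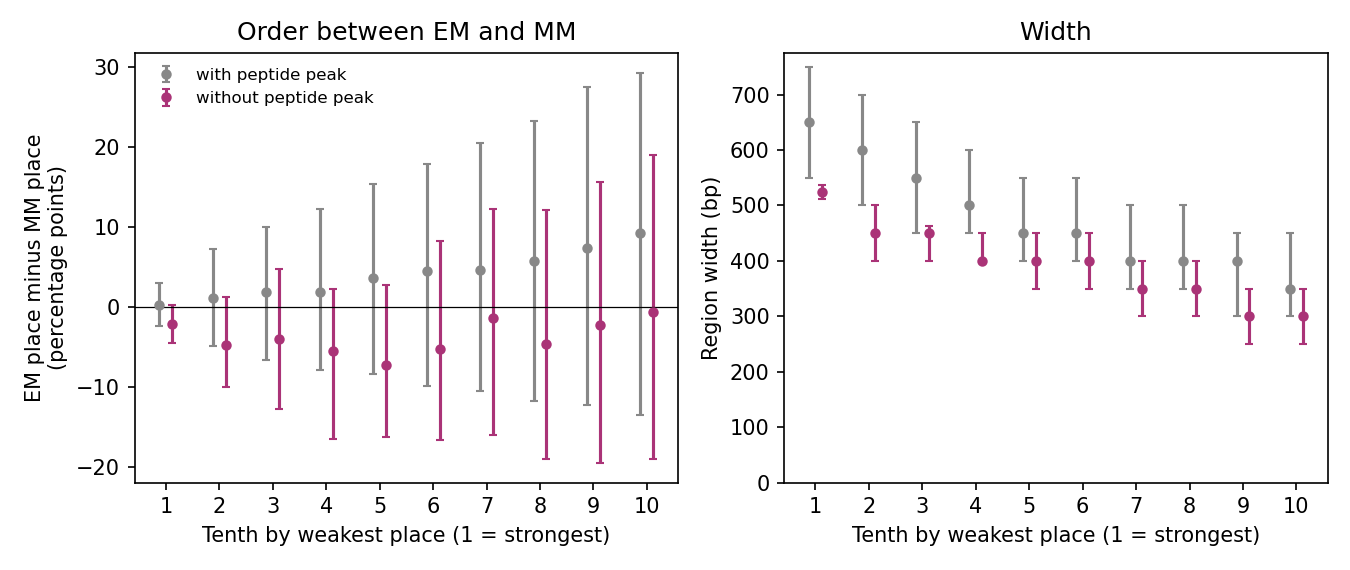
Left, EM place minus MM place (y axis, percentage points) and right, region width (y axis, bp), in 10 classes by weakest place (x axis), for all-stage regions with (grey) and without (purple) a peptide peak; points are medians and bars run from the lower to the upper quartile. The purple medians lie below 0 on the left and under the grey ones on the right in every class. The quartile ranges overlap on the left in each class, and on the right they are apart in the first class and overlap by little or only touch in the next 3; the first class holds 2 regions without a peptide peak.

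Widths were then followed from stage to stage. The MM peak was wider than the COT peak in 54.4% of the members (52.8 to 55.9) and in 68.8% of the regions with a peptide peak (68.3 to 69.3). It was narrower in 29.5 and 17.9%. Between EM and MM the widening share was 42.7% in the members and 48.5% in the other set. The best of the 3 places was at EM in 36.5% of the members, at COT in 34.6% and at MM in 28.9%. In the regions with a peptide peak it was at MM in 37.2%, at COT in 34.6% and at EM in 28.2%.

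The stages agreed less on the order of the members than on that of the other regions. Across the 3885 members, Spearman's rho of the places was 0.253 for COT and EM, 0.171 for COT and MM and 0.445 for EM and MM. Across the 32050 regions with a peptide peak it was 0.586, 0.579 and 0.754. The points share libraries, and the members span a slightly narrower range of places. Their quartiles were 43.0 and 79.5% at EM and 46.8 and 80.8% at MM. Those of the other set were 15.2 and 54.4% at EM and 13.2 and 48.9% at MM. Whether the range of places bears on these rho values was not tested.

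Presence at COT went with the peptide peak within classes of the weaker of the EM and MM places. Regions called at EM and MM were put into 10 classes by the weaker of those 2 places. In the first class 24 of 4664 regions with a COT peak had no peptide peak, or 0.515% (0.330 to 0.765), against 9 of 72 without a COT peak, or 12.5% (5.88 to 22.4). In the fifth class it was 7.69% (6.87 to 8.59) against 24.8% (22.1 to 27.7), and in the last 34.2% (32.3 to 36.2) against 55.9% (53.9 to 57.9). The share was lower with a COT peak in each class. The better of the EM and MM places was not matched.

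The leading members were chosen by weakest place, so that high scores in all 3 lists follow from the choice. The weakest places of the first 10 were 8.34 to 16.0%. The first lay on chromosome 8 at positions 11991801 to 11992350 of the Gmax275 build and was also the member with the highest COT score. Its score was 3.95 at COT (place 1883), 4.98 at EM (place 4598) and 5.38 at MM (place 3658), each on its own list's scale. The nearest peptide peak lay 900 bp away and was itself among the lowest-scoring, in place 46033 of 49566.

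The second lay on chromosome 5 at 22212901 to 22213400. It took place 4699 at COT, 508 at EM and 5079 at MM, and the nearest peptide peak lay 11850 bp away. It stood about as high at COT as at MM and far higher at EM. These were the 2 members in the strongest class of all-stage regions, and both lay in the chromosome centres, the part between 25 and 75% of the length.

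The next members by weakest place showed the same lead of EM in some cases and not in others. The third, on chromosome 6 at 12964351 to 12964850, took place 3631 at COT, 2942 at EM and 8920 at MM. The fourth, on chromosome 11 at 12688651 to 12689100, took place 2905 at COT, 7679 at EM and 7269 at MM, so that COT led. A peptide peak of 450 bp in place 18533 ended 600 bp before it.

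Another pair of leading members lay on chromosome 6. The site at 1575601 to 1576100 took place 7260 at COT, 3704 at EM and 8441 at MM. The one at 46155151 to 46155650 took place 7803 at COT, 636 at EM and 8616 at MM. EM led in both, and most clearly in the latter.

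The remaining leading members lay on 4 chromosomes. The site on chromosome 14 at 42848001 to 42848650 took place 7628 at COT, 3674 at EM and 5517 at MM, and that on chromosome 9 at 46881851 to 46882350 took place 4892, 8405 and 6315. The site on chromosome 5 at 39597801 to 39598350 took place 8279 at COT, 5353 at EM and 6387 at MM. The last of the 10, on chromosome 12 at 6140451 to 6140900, took place 6707 at COT, 2451 at EM and 10269 at MM. For these 4 sites the nearest peptide peak was 1000 to 9450 bp away. The peptide peaks beside the sites on chromosome 5 and chromosome 12 were in places 6664 and 8738, so that well-scored peptide peaks were called in the surroundings of some members.

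**Figure D4:**
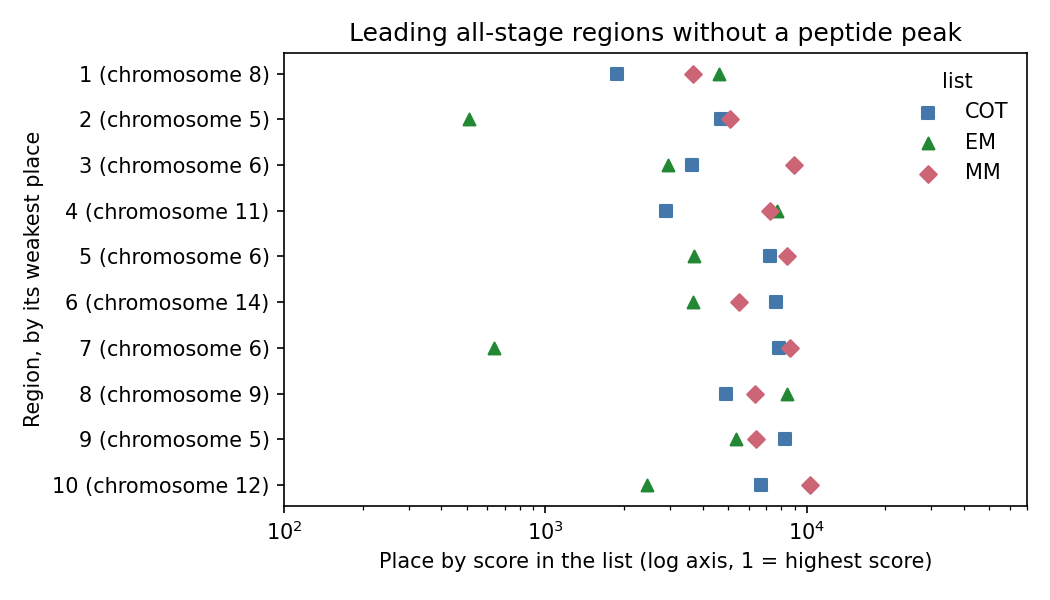
Places by score (x axis, log axis, 1 being the highest score) in the COT, EM and MM lists for the 10 all-stage regions without a peptide peak that have the best weakest place (y axis, with their chromosome). The EM place is the best of the 3 in 7 of the 10, and the 2 leftmost points are EM places 508 and 636.

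The members with the highest EM and the highest MM score ranked lower in the other lists, which choosing by a single list favours. The member with the highest EM score covered 35881751 to 35882350 of chromosome 3 and ranked 413 at EM, 2934 at MM and 14313 at COT. The one with the highest MM score covered 2232251 to 2232850 of chromosome 14 and ranked 246 at MM, 1855 at EM and 39728 at COT, where its peak was 150 bp wide against 550 bp at EM and 600 bp at MM. It is thus an all-stage region by a weak COT peak alone. The nearest peptide peak was 5550 bp from the former and 12950 bp from the latter.

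At the limit of the rule, 7 members touched a peptide peak without sharing a base, and 50 all-stage regions were left out by a single 50 bp bin covered by peptide peaks. The first touching members, by position, lay on chromosome 2 at 46081951 to 46082700 (places 28301 at COT, 28194 at EM and 58638 at MM), chromosome 3 at 1716301 to 1716600 (46991, 48221 and 33525) and chromosome 5 at 38406701 to 38407150 (8944, 15593 and 24924). Just outside were the regions on chromosome 2 at 3213851 to 3214300 (50981, 37657 and 40771), at 5184201 to 5184600 (12813, 26563 and 28623) and at 6350101 to 6350400 (50212, 41793 and 61586). Places on either side of the limit overlapped.

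Near misses were few. A peptide peak lay within 100 bp of 56 members (1.44%), within 500 bp of 522 (13.4%, 12.4 to 14.5) and within 1000 bp of 1103 (28.4%, 27.0 to 29.8). All-stage regions with a peptide peak had a further peptide peak outside the region within 500 bp in 14.0% (13.6 to 14.4) and within 1000 bp in 27.6% (27.2 to 28.1). The median distance was 2350 bp for the members and 2450 bp for the other set. The surroundings of the members thus held peptide peaks at about the same distances as those of other all-stage regions.

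The peptide peaks next to members were of the same kinds, in similar proportions, as the whole peptide list. The nearest lay over another all-stage region for 67.5% of the members (66.0 to 69.0), over a region of 1 or 2 stages for 27.3%, and over no anti-recombinant region for 5.23%. In the whole peptide list these kinds made up 66.4, 28.2 and 5.45%. For the 522 members with a peptide peak within 500 bp, 39 of these peaks lay over no anti-recombinant region, or 7.47% (5.37 to 10.1).

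Members were spread along the genome like the other all-stage regions. The chromosome centres held 20.3% of the members on chromosomes (19.01 to 21.6) and 21.5% of the regions with a peptide peak (21.1 to 22.0). The outer 20% at either end held 69.7 and 68.9%. Within classes 2 to 10 of the weakest place, the share in the centres was lower for the members in 7 of 9. It was 17.3 against 21.4% in the sixth class and 22.7 against 22.4% in the ninth. Scaffolds held 22 members. Neither genes nor mappable sequence were examined.

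The share of all-stage regions without a peptide peak was similar from chromosome to chromosome. It ran from 9.26% on chromosome 1 (153 of 1652, 7.91 to 10.76) to 13.0% on chromosome 16 (162 of 1244, 11.2 to 15.0). The other 18 chromosomes lay between 9.79 and 11.7%, with intervals that hold the share over all sequences. Chromosome 13 had the most members, 311, and also the most all-stage regions, 2663.

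**Figure D5:**
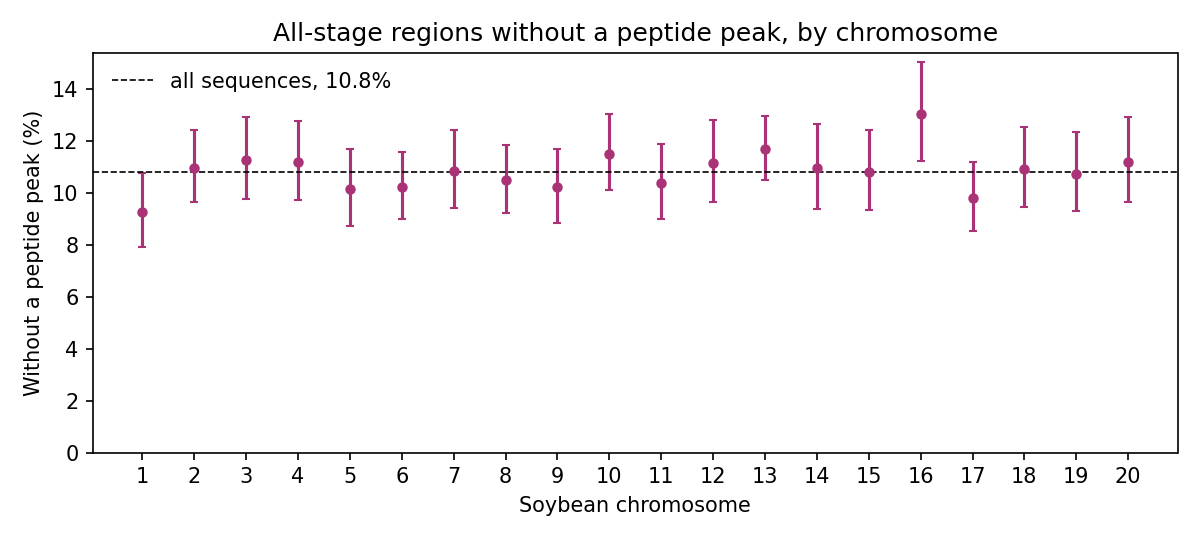
Share of all-stage regions without a peptide peak (y axis, %) on each of the 20 soybean chromosomes (x axis); bars are exact 95% intervals and the dashed line is the share over all sequences, 10.8%. Chromosome 16 lies highest, at 13.0%, and chromosome 1 lowest, at 9.26%.

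A member as the next all-stage region was about as frequent beside members as beside regions with a peptide peak. It was found for 11.2% of the members (10.2 to 12.2) and for 10.8% of the regions with a peptide peak (10.4 to 11.1). Another all-stage region lay within 1000 bp of 24.0% of the members and 23.1% of the other set. Of the members, 3061 had no member as the next all-stage region on either side, and 349 runs of 2 and 39 runs of 3 members occurred.

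The longest run held 5 members, on chromosome 12 between 3730051 and 3822700. They spanned 92650 bp, with 4 regions of 1 or 2 stages between them, 1 of which had a peptide peak. The 5 were 150 to 450 bp wide and took places 17356 to 51711 at COT, 25224 to 54719 at EM and 21730 to 63283 at MM, so the run was made of middling and weak sites.

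The 1 Mb window with the most members, 19, was on chromosome 16 at 1000001 to 2000000, where they were 16.7% of 114 all-stage regions. Over the 504 windows with at least 20 all-stage regions the share had a median of 10.5% and quartiles of 7.78 and 13.7%. It was 0 in 5 of these windows and at most 30.0%. The widest member, 1000 bp, lay on chromosome 16 at 5730801 to 5731800, with a COT peak of 100 bp, a strongest EM peak of 900 bp and a strongest MM peak of 350 bp. Its strongest peaks of the 3 stages shared no base.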

How the data were processed

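The deposited files are 4 peak lists, with a score per peak computed by the authors on a scale that these sources do not give. The tools listed per the submitters' processing notes are Bowtie 0.12.7 and SAMtools 0.1.19. Which peak caller and threshold were used, and whether replicates were pooled, is not given in those notes. The build, Gmax275, is taken from the peak names. The end of a peak was taken to be the final base of its 50 bp bin, since all starts and widths are then multiples of 50 bp, and positions are 1-based. Scores were used only to order peaks within a list. The strongest peak of a list stood for that list in a region holding more than 1. Regions were computed with Python 3.11.15, pandas 2.3.3, numpy 2.4.6 and scipy 1.17.1, and the merging code was checked against brute force on simulated lists. Chromosome length was the last peak end over all lists. The regions named are the 10 with the best weakest place, those with the highest score in each list, 3 on either side of the rule's limit, the longest run, the fullest window and the widest. No genome or annotation of this build was used, so no sequence, motif or gene is given. The members and measures were chosen with earlier results of these data known. The classes of equal place in 1 list and those split by COT were added after the values were seen.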

Additional observations from a re-analysis of the deposited data

How the results depend on the processing

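No paired analysis was possible because there is 1 list for the 2 replicates of each combination and none for a single replicate, so no replicate could be left out. The count of 3885 members stayed within 1.5 times under 7 of 10 alternatives, from 3422 with no peptide peak allowed within 500 bp to 4743 when only a reciprocal overlap of at least 50% counted. Some of the 7 could hardly move it, such as peak ends as written (3885) and chromosomes without scaffolds (3863). The count was 2381 (7.59% of all-stage regions) with lists of equal length and 337 (1.98%) with the higher-scoring 50% of each anti-recombinant list. It was 13688 (38.1%) with the higher-scoring 50% of the peptide list. All of these settings that shorten lists remove peaks that define members. The median width was 400 bp with the higher-scoring 50% of the anti-recombinant lists and within 50 bp of the reported value otherwise. The share in chromosome centres was 21.6% with the higher-scoring 50% of the peptide list and 19.8 to 21.0% otherwise. Among the strongest 10% of all-stage regions the share without a peptide peak was 0.556% with the higher-scoring 50% of the peptide list, 0.696% under reciprocal overlap and 1.92% when peptide midpoints had to lie within 100 bp. With the higher-scoring 50% of the anti-recombinant lists it was 0 of 1702. The median of EM minus MM place, recomputed under settings chosen after seeing the data, turned from −3.01 to 0.680 with the higher-scoring 50% of the peptide list and stayed below 0 in the other 9. Requiring the 3 strongest peaks to share a base, also chosen after seeing the data, gave 3738 members. Depth is unknown and limits every absence reported here.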
